A study of Mus musculus with 6 samples.

Results

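Cytosolic nucleic acid sensors are proteins that bind RNA or DNA in the wrong place or form inside a cell, and this gene set holds 10 of them with their adaptors and brakes, out of 16871 genes listed in any library. The members were taken by name from a given list, which was chosen with earlier results of these data known. They are Ddx58, Ifih1, Dhx58, Mavs, Sting1 (listed under its older name Tmem173), Cgas (listed as Mb21d1), Zbp1, Trex1, Samhd1 and Adar. RNA was sequenced from bone marrow-derived macrophages, cells matured in a dish from mouse marrow, here for 7 days before they were given oxidised low-density lipoprotein (oxLDL). The libraries were 3 from cells without both ALDH2 (acetaldehyde dehydrogenase 2) and the LDL receptor (DKO) and 3 from cells without the LDL receptor alone (LKO). All mice were labelled C57BL/6 and aged 8 weeks, all cells had received oxLDL, and both groups carried the LDL receptor knockout, so a macrophage with an intact receptor and an untreated macrophage were not part of the comparison. The sources used here do not state the oxLDL dose, its duration or how either knockout allele was made.

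In these pathways, RIG-I (Ddx58) and MDA5 (Ifih1) are helicases that bind viral-type RNA and signal through MAVS, an adaptor on the mitochondrial surface, while LGP2 (Dhx58) is a related helicase that lacks the signalling domain and tunes the others. cGAS makes a cyclic dinucleotide when it meets cytosolic DNA, and STING, a protein of the endoplasmic reticulum, receives that messenger; both adaptors act through the kinase TBK1 to switch on type I interferon. ZBP1 binds nucleic acids in the Z conformation and can start cell death. TREX1 (a DNA exonuclease), SAMHD1 (an enzyme that degrades deoxynucleotides) and ADAR (an editor of RNA duplexes) keep the cell's own nucleic acids from setting off the sensors. Many of these genes are themselves induced by interferon, and macrophages express most of them at rest.

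Promoter windows of the members were searched for a short element of paired GAAA letters, through which interferon acts on many genes. Only windows with a match are shown. RefSeq windows of GRCm38.p6 run from 250 bases before to 50 bases after an annotated start. None is reported for Dhx58, Sting1 and Zbp1. Any window on the chromosome of Sting1 was left out of the member counts. That filter was not applied to the shares over all genes. Windows are reported for the other 7 of the 10 members, Ddx58, Ifih1, Mavs, Cgas, Trex1, Samhd1 and Adar. They were searched on both strands for GAAANNGAAA and for its shorter form GAAANNGAA, which every match of the longer form contains. The longer form was present in 2 of the 7, Ddx58 and Ifih1, against 3.99% of 27025 genes with a window. The shorter form was present in 3 of the 7, Adar being the third, against 9.76% of genes. The windows with a match read as follows, 5′ to 3′ on the gene's strand, with matches to either form in capitals, whichever strand they lie on. A match of letters is a description of the window, and binding was not measured.
Ddx58, chr4:40239776-40240075, minus strand: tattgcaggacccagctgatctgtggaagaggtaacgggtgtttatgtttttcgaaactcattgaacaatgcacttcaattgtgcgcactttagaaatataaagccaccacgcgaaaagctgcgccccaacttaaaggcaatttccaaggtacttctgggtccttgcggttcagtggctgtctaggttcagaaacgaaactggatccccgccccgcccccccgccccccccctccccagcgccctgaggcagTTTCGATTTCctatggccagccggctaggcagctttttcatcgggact
Ifih1, chr2:62646206-62646505, minus strand: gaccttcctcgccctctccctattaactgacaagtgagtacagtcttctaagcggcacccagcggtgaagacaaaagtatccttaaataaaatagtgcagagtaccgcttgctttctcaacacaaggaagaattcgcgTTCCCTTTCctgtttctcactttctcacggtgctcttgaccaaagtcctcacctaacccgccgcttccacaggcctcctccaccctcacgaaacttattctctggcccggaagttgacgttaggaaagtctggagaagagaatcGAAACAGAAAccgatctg
Adar, chr3:89730468-89730767, plus strand: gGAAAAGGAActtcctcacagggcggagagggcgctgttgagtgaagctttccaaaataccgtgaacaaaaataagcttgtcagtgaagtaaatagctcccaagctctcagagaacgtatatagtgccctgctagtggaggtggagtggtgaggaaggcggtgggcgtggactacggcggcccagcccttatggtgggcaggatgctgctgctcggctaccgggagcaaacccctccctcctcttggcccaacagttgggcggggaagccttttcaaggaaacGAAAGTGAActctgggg
Adar has 3 annotated windows and only this one held a match. The Ddx58 match lies just after the annotated start and the long Ifih1 match lies near the end of its window. These coordinates belong to GRCm38 and not to the build named for the deposited files.

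Libraries were of similar depth, with between 10760625 and 10987584 expected counts each (the authors' estimates of reads per gene), and between 14904 and 15048 listed genes. The targeted gene Aldh2 stood at 7.13 ± 0.181 FPKM in DKO and 241 ± 6.83 FPKM in LKO (SD, n = 3 each; FPKM is the count scaled to transcript length and library size). An exact two-sided permutation test on Aldh2 gave p = 0.1, and no smaller value is possible with 3 libraries a group. The labels do not say that the libraries came from separate animals or cultures, and p-values therefore reflect only how these libraries scatter, which may be technical. Macrophage markers were high in every library, with a summed level of 10774.5 to 11997.8 FPKM in DKO and 9505.3 to 10243.3 FPKM in LKO over 10 genes, of which Lyz2 (7616.1 FPKM in DKO and 6105.4 FPKM in LKO on average) and Adgre1 (1754.8 FPKM in DKO and 1938.5 FPKM in LKO) made up most.

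Sensor genes were higher in DKO macrophages, by a small margin for most. Of the 10 members, all of which passed the filter on low counts, 8 rose in DKO, none fell and 2, Mavs and Cgas, did not pass an edgeR adjusted p of 0.05. Over all 11809 genes tested, 14.3% passed, 7.42% as higher and 6.88% as lower in DKO. The members were chosen with earlier results of these data known, so their count is a description. The median log2 fold change of the members was 0.32, beside 0 over all tested genes. The macrophage markers shifted by a like amount in the same libraries: of 10 tested, 6 rose, 1 fell and 3 did not pass, with a median log2 fold change of 0.37, above that of the sensor genes. Their part in the rise of the sensor genes was not tested. In 8 of the 10 every DKO library lay above every LKO library, a pattern that 13.6% of tested genes showed. The summed FPKM of the 10 genes was 619, 634 and 659 in DKO, against 512, 558 and 523 in LKO. In a bulk sample a change in the number of cells that express a gene and a change in its RNA per cell cannot be told apart.

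**Figure D1:**
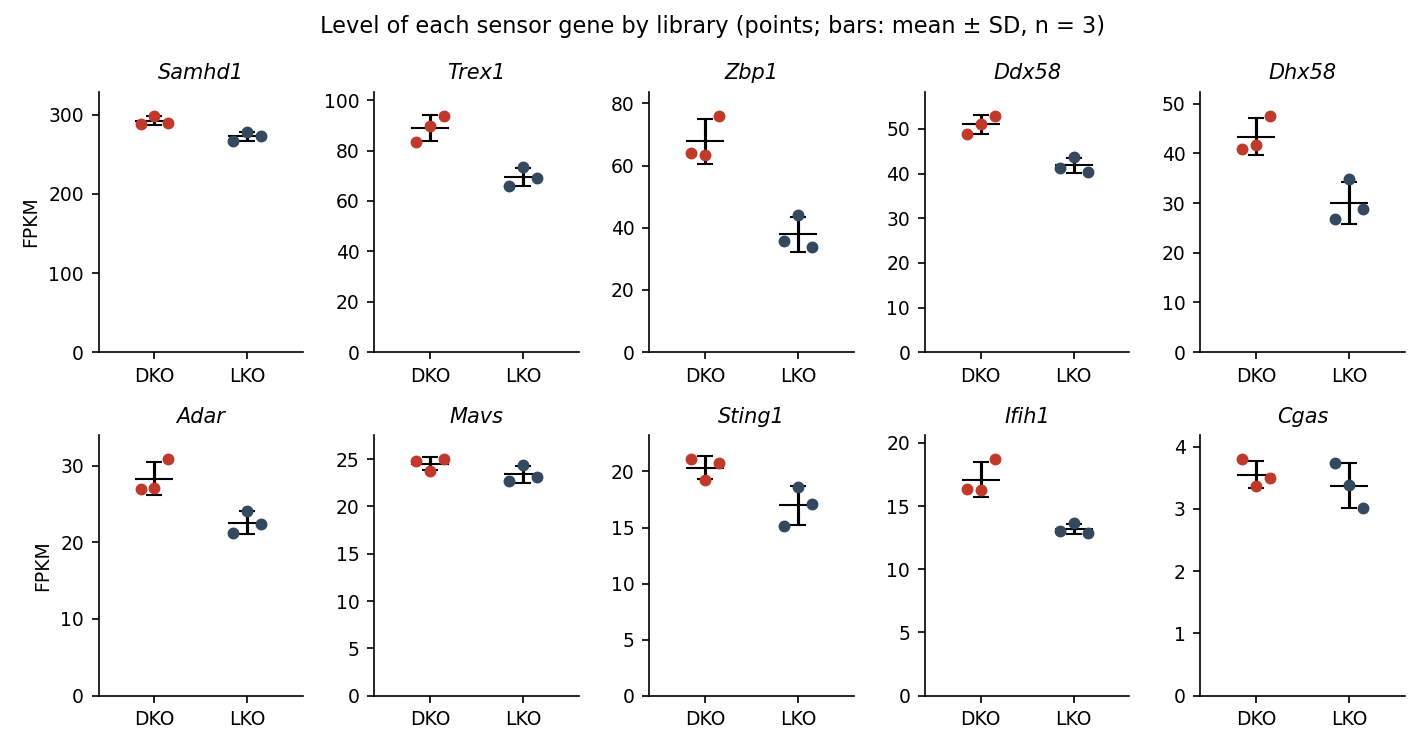
FPKM of each of the 10 genes (vertical axis, from 0) in the 3 DKO libraries and the 3 LKO libraries, with the mean and SD as bars. The ranges of the groups are apart for 8 genes and overlap for Mavs and Cgas.

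Among the RNA sensors, all the RIG-I-like helicases rose. Ddx58, which encodes RIG-I, had 48.9, 51.2 and 53.0 FPKM in DKO, against 41.3, 43.7 and 40.4 FPKM in LKO. The groups did not overlap, and the lowest DKO library was well clear of the highest LKO library. The rise was 1.23-fold (log2 fold change 0.30 ± 0.05 SE, edgeR adjusted p = 0.000135), on between 2680.88 and 2892.64 counts in DKO and between 2170.49 and 2365.13 in LKO. Ifih1, which encodes MDA5, had 16.3, 16.3 and 18.7 FPKM in DKO, against 13.0, 13.7 and 12.9 FPKM in LKO. Here too every DKO library was above every LKO library, by 1.31-fold (0.39 ± 0.06 SE on the log2 scale, edgeR adjusted p = 0.000111). Ddx58 was therefore the more abundant of the pair per length of transcript in both groups, while their 95% intervals of fold change, 1.15 to 1.32 for Ddx58 and 1.20 to 1.43 for Ifih1, overlapped.

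Dhx58, which encodes the regulatory helicase LGP2, rose most of the helicases. It had 40.9, 41.7 and 47.6 FPKM in DKO, against 26.7, 34.8 and 28.8 FPKM in LKO. LKO replicate 2 was the highest of its group and DKO replicate 3 the highest of its own, and the groups still stood apart. The fold was 1.45, with a 95% interval of 1.30 to 1.63 (edgeR adjusted p = 4.23e-05). GENCODE annotates an antisense gene over Dhx58, and the strand setting of the counts is not known, so reads from it could not be separated.

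The adaptor below these helicases did not follow them past the threshold. Mavs had 24.8, 23.7 and 25 FPKM in DKO, against 22.7, 24.4 and 23.1 FPKM in LKO. The ranges overlapped, since LKO replicate 2 was above DKO replicate 2. Its fold was 1.07 with a 95% interval of 0.983 to 1.16 (edgeR adjusted p = 0.325), which includes no change and leaves out a change as large as the lower bound of Ifih1.

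In the DNA arm, the sensor and its adaptor gave different results. Cgas was the least abundant member, at 3.80, 3.37 and 3.49 FPKM in DKO, against 3.74, 3.38 and 3.01 FPKM in LKO. The groups overlapped almost throughout. With between 152.03 and 172.22 counts in DKO and between 133.81 and 168.38 in LKO, its fold of 1.06 had the widest interval of the 10 on the log2 scale, 0.906 to 1.24 as a fold (edgeR adjusted p = 0.701), which holds both no change and the rise of Ddx58. Sting1, the receptor of the messenger that cGAS makes, had 21.1, 19.2 and 20.7 FPKM in DKO, against 15.2, 18.7 and 17.1 FPKM in LKO. Every DKO library was above every LKO library, although DKO replicate 2 and LKO replicate 2 lay close together. The rise was 1.21-fold (log2 fold change 0.27 ± 0.07 SE, edgeR adjusted p = 0.0146). It did not pass in DESeq2 (adjusted p = 0.061), in limma on log2(FPKM + 1) (adjusted p = 0.068), and without LKO replicate 1 (0.0761), DKO replicate 1 (0.0715) or DKO replicate 3 (0.0539).

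Zbp1, the sensor of Z-form nucleic acids, changed more than any other member. It had 64.0, 63.3 and 76.1 FPKM in DKO, against 35.7, 44.1 and 33.7 FPKM in LKO. The lowest DKO library stood clearly above the highest LKO library. The rise was 1.90-fold by counts, or 0.93 ± 0.08 SE on the log2 scale (edgeR adjusted p = 8e-08). Its 95% interval of 1.68 to 2.15 lay above that of Dhx58. Of all tested genes, 0.745% passed with a log2 fold change at least as high as that of Zbp1. In mean FPKM the ratio was smaller, 1.79, because the transcript length that FPKM is divided by was also higher in DKO, as described further on.

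**Figure D2:**
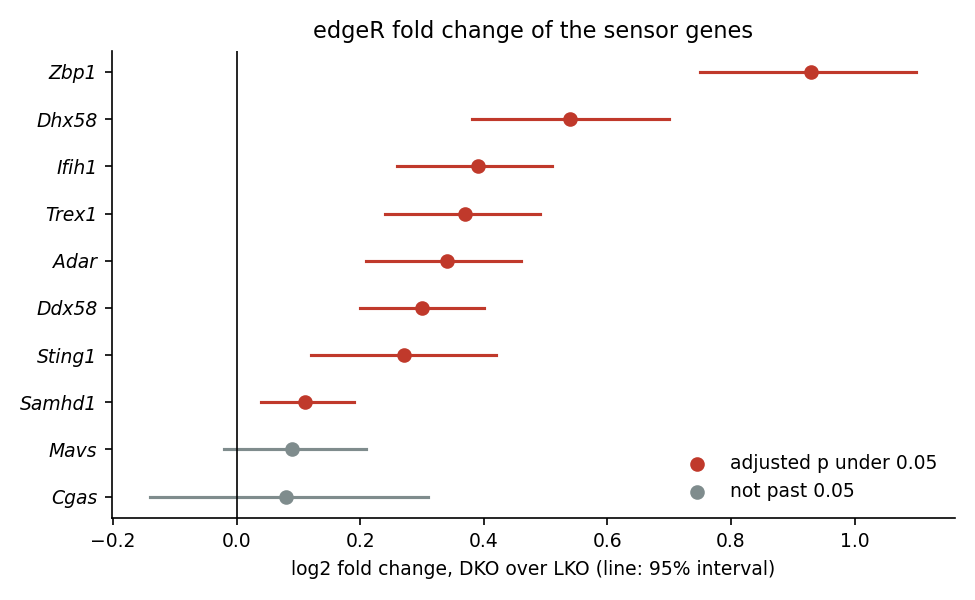
edgeR log2 fold change of each gene, DKO over LKO (horizontal axis), with its 95% interval as a line; red marks an adjusted p under 0.05. Zbp1 stands apart at 0.93, Dhx58 follows at 0.54, and the intervals of Mavs and Cgas cross 0.

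The brakes on self nucleic acids rose by different amounts. Trex1, the exonuclease that removes cytosolic DNA, had 83.4, 89.8 and 93.8 FPKM in DKO, against 66.1, 73.3 and 69.2 FPKM in LKO. All DKO libraries were above all LKO libraries, by 1.29-fold (log2 fold change 0.37 ± 0.06 SE, edgeR adjusted p = 0.000144). Trex1 lies within the annotation of Atrip on the same strand, and Atrip itself averaged 4.10 FPKM in DKO and 3.98 FPKM in LKO. Adar, the editor of RNA duplexes, had 27.0, 27.1 and 30.8 FPKM in DKO, against 21.2, 24.1 and 22.4 FPKM in LKO. Its groups did not overlap, with a 1.26-fold rise (log2 fold change 0.34 ± 0.06 SE, edgeR adjusted p = 0.000326). The Adar call was lost in limma on log2(FPKM + 1) without a filter (adjusted p = 0.0594). The counts are per gene and the editing of RNA itself was not measured.

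Samhd1, the deoxynucleotide-degrading enzyme, was by far the most abundant member and the called one that moved least. It had 289, 299 and 290 FPKM in DKO, against 267, 278 and 273 FPKM in LKO. The groups did not overlap, but the gap between them was about as wide as the range within a group. The fold was 1.08, with a 95% interval of 1.02 to 1.14 and an edgeR adjusted p of 0.0479. This call held in 2 of 15 alternatives, and it was lost when any of the 6 libraries was left out (adjusted p between 0.0623 and 0.182).

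Ordered by FPKM in DKO, the members ran Samhd1, Trex1, Zbp1, Ddx58, Dhx58, Adar, Mavs, Sting1, Ifih1 and Cgas, and no neighbours in that order had overlapping ranges. In LKO, Ddx58 (41.8 ± 1.72 FPKM) stood ahead of Zbp1 (37.9 ± 5.52 FPKM) and Mavs (23.4 ± 0.921 FPKM) ahead of Adar (22.6 ± 1.48 FPKM; SD, n = 3 each). The ranges of both these pairs overlapped in LKO, as did those of Zbp1 and Dhx58 (30.1 ± 4.21 FPKM). The order of Samhd1, Trex1, Sting1, Ifih1 and Cgas was the same in both groups.

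Libraries within a group also differed together. DKO replicate 3 was the highest DKO library for 7 of the 10 members, Ddx58, Ifih1, Dhx58, Mavs, Zbp1, Trex1 and Adar, while it was the highest for 30.4% of all tested genes. LKO replicate 2 was the highest LKO library for 9 of the 10, all but Cgas, against 28.4% of all tested genes. Without LKO replicate 2 the fold change of Dhx58 was 0.66 on the log2 scale and that of Zbp1 was 1.04, and without DKO replicate 3 they were 0.46 and 0.83. Both genes kept their calls in each case.

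The deposited files also give each gene a transcript length, which varies between libraries where reads are divided among transcripts of different length. For Zbp1 this length was 1195, 1188 and 1194 bases in DKO, against 1141, 1122 and 1145 bases in LKO. The groups did not overlap, and the DKO mean was 4.99% longer. Of 3491 tested genes with several transcripts and a varying length, 9.83% had groups that did not overlap. A limma fit on log2 length over those genes, chosen after the lengths were seen, gave Zbp1 an adjusted p of 0.13, which does not pass, while 6 genes (0.172%) did. The transcripts listed for Zbp1 are NM_001139519 and NM_021394, which GENCODE M21 matches to transcripts of 770 and 1989 bases. The lengths of Mavs, Sting1, Trex1, Samhd1 and Adar overlapped between the groups, and those of Ddx58, Ifih1, Dhx58 and Cgas were constant.

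**Figure D3:**
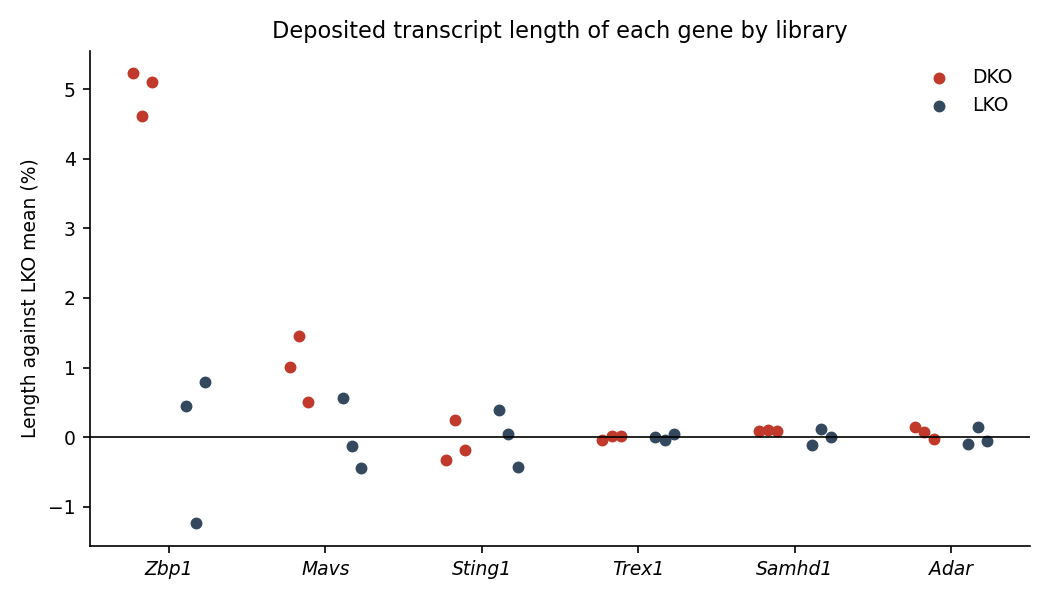
Transcript length in each library as a percent difference from the LKO mean of the same gene (vertical axis), for the 6 members whose length varied; red points are DKO libraries and dark points LKO libraries. Zbp1 is 4.99% longer in DKO on average with no overlap, and the other genes overlap.

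Genes that work with the sensors mostly did not pass the test. Over 5 lists with a tested gene, 104 genes were tested, 15 rose and 8 fell, which is 22.1% called beside 14.3% over all tested genes. Their median log2 fold change was 0.05, against 0.32 for the members. The lists were put together with earlier results of these data known, so their counts are a description. In limma on log2(FPKM + 1) without a filter, the calls of Ddx21 (adjusted p = 0.0677), Eif2ak2 (0.0621), Ifi203 (0.0501), Optn (0.0504), Tank (0.0609), Ikbke (0.0981), Pld3 (0.141), Gsdme (0.092), Lrrc8a (0.113) and Ulk1 (0.104) were lost. The call of Stim1 was lost in that fit too.

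Of 33 tested partners of the RNA sensors, 4 rose, 2 fell and 27 did not pass, with a median log2 fold change of 0.02. That is 18.2% called, beside 14.3% over all tested genes. In DKO 12.1% were higher, beside 7.42%, and 6.06% were lower, beside 6.88%. Whether the list differs from all tested genes was not tested. Ddx60, a helicase reported to aid RIG-I, averaged 9.54 ± 0.454 FPKM in DKO and 5.89 ± 0.376 FPKM in LKO (SD, n = 3 each), a log2 fold change of 0.71 (edgeR adjusted p = 9.93e-08). Trim25, a ubiquitin ligase that activates RIG-I, averaged 43.2 ± 1.0 FPKM in DKO and 34.5 ± 0.740 FPKM in LKO. Nlrc5, a regulator of interferon signalling and of antigen presentation, and Eif2ak2, which encodes the RNA-activated kinase PKR, rose as well, by 0.47 and 0.27 on the log2 scale. The helicase genes Ddx21 and Dhx15 fell by 0.25 and 0.16 on the log2 scale. The Dhx15 call was lost without DKO replicate 2 (edgeR adjusted p = 0.0784) or DKO replicate 3 (0.0503).

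Of 30 tested partners of the DNA sensors, 7 rose, 1 fell and 22 did not pass, with a median log2 fold change of 0.06. That is 26.7% called, beside 14.3% over all tested genes, and 23.3% higher in DKO, beside 7.42%. Ifi204, an interferon-induced DNA-binding protein, had 83.3, 84.8 and 97.2 FPKM in DKO, against 53.5, 57.6 and 51.0 FPKM in LKO (edgeR adjusted p = 2.28e-08). The groups were far apart, with a log2 fold change of 0.72 ± 0.06 SE. Ifi203 averaged 38.4 ± 2.59 FPKM in DKO and 31.5 ± 1.44 FPKM in LKO, and Mndal 85.6 ± 4.86 FPKM in DKO and 70.2 ± 1.42 FPKM in LKO. Ifi204, Ifi203 and Mndal belong to the HIN-200 family and are related copies, so the division of reads among them is uncertain. Of the other family members on the list, Aim2, the DNA sensor of an inflammasome, had a log2 fold change of −0.08 (edgeR adjusted p = 0.497) and Ifi205 one of 0.37 (edgeR adjusted p = 0.527), and neither passed. The other 4 genes that rose are outside the family, with log2 fold changes of 0.33 for Lrrc8a, 0.29 for Ulk1, 0.19 for Abcc1 and 0.17 for Stim1; they, Aim2 and Ifi205 were named after their values were seen. The Stim1 call held in 1 of 15 alternatives and was lost when any of the 6 libraries was left out, and that of Lrrc8a was lost without DKO replicate 3 (edgeR adjusted p = 0.0517) and in limma on log2(FPKM + 1) (adjusted p = 0.0503). G3bp1, a stress granule protein that assists cGAS, was the gene of this partner list that fell, at 54.1 ± 0.771 FPKM in DKO and 63.5 ± 0.823 FPKM in LKO (log2 fold change −0.22, edgeR adjusted p = 0.00172).

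The shared kinases and transcription factors held the largest single rise of these lists. Irf7, the factor that amplifies interferon production and is itself interferon-induced, had 187, 188 and 212 FPKM in DKO, against 68.3, 98.2 and 83.3 FPKM in LKO. Every DKO library was far above every LKO library, and the log2 fold change was 1.24 ± 0.08 SE (edgeR adjusted p = 5.36e-10). Of 14 tested, it was the only one to rise, while 3 fell and 10 did not pass, with a median of 0.04. That is 28.6% called, beside 14.3% over all tested genes. In DKO 7.14% were higher, beside 7.42%, and 21.4% were lower, beside 6.88%. Those that fell were Optn (−0.40), Tank (−0.26) and Ikbke (−0.16), an adaptor for ubiquitin chains, a scaffold of TBK1 and a kinase related to TBK1. Ikbke lost its call without DKO replicate 1 (edgeR adjusted p = 0.0807) or 2 (0.0886), without LKO replicate 2 (0.0792) or 3 (0.0946), and in limma on log2(FPKM + 1) (adjusted p = 0.0524). The kinase gene Tbk1 itself averaged 35.1 ± 1.53 FPKM in DKO and 33.7 ± 0.873 FPKM in LKO (edgeR adjusted p = 0.429), and Irf3, the factor it activates, 25 ± 0.980 FPKM in DKO and 24.8 ± 0.841 FPKM in LKO (edgeR adjusted p = 0.867). Tbk1 and Irf3 were named after their values were seen.

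Of 19 tested genes of nucleic acid clearance and self-RNA control, 2 rose, 1 fell and 16 did not pass, with a median log2 fold change of 0.07. That is 15.8% called, about the 14.3% over all tested genes. Acp5, an acid phosphatase whose loss in humans causes an interferon disease and which also marks osteoclasts, averaged 104 ± 5.32 FPKM in DKO and 171 ± 4.10 FPKM in LKO (log2 fold change −0.70, edgeR adjusted p = 8.82e-10). Ern1, which encodes the stress sensor and endoribonuclease IRE1, averaged 10.5 ± 0.514 FPKM in DKO and 7.01 ± 0.482 FPKM in LKO. Pld3, a lysosomal exonuclease, rose by 0.21 on the log2 scale, a call lost in limma on log2(FPKM + 1) (adjusted p = 0.0727) and without DKO replicate 1 (0.0597), DKO replicate 2 (0.0615) or LKO replicate 1 (0.0555).

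Around ZBP1, 1 of the 8 tested partners of cell death rose, 1 fell and 6 did not pass, with a median of 0.08. That is 25% called, beside 14.3% over all tested genes. Mlkl, the pore-forming protein of necroptosis, had 9.39, 9.41 and 9.39 FPKM in DKO, against 7.21, 7.20 and 6.98 FPKM in LKO (log2 fold change 0.41 ± 0.09 SE, edgeR adjusted p = 0.00294). The groups were well apart. Gsdme, a gasdermin, averaged 2.00 ± 0.265 FPKM in DKO and 2.98 ± 0.334 FPKM in LKO, and its call did not hold in DESeq2 (adjusted p = 0.157) or without LKO replicate 1 (0.0851), LKO replicate 2 (0.0656), DKO replicate 1 (0.122) or DKO replicate 2 (0.0591). Ripk3, the kinase that ZBP1 binds, did not pass, at 10.1 ± 0.208 FPKM in DKO and 9.08 ± 0.414 FPKM in LKO (log2 fold change 0.16, 95% interval −0.02 to 0.34, edgeR adjusted p = 0.247); it was named after its values were seen.

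**Figure D4:**
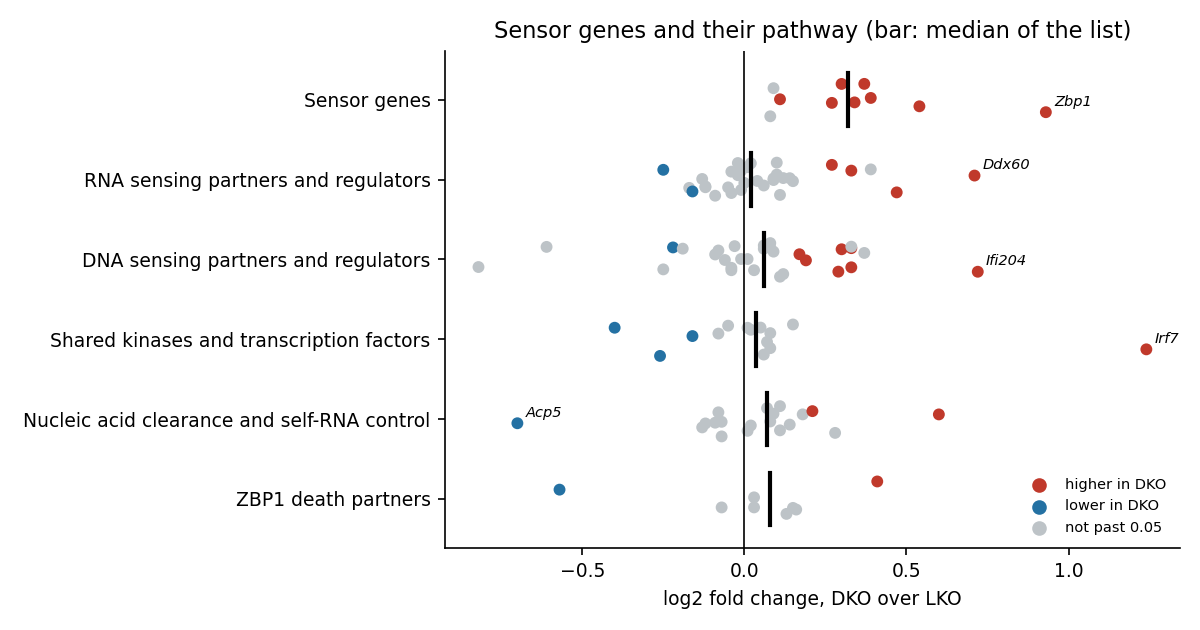
edgeR log2 fold change, DKO over LKO (horizontal axis), of each tested gene of the sensor set and of 5 pathway lists, with the median of each list as a black bar; red and blue mark genes higher and lower in DKO past an adjusted p of 0.05. The sensor genes have a median of 0.32 and each other list one between 0.02 and 0.08.

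Of 13 interferon genes looked up, Ifng had a row, with 1 count in a single LKO library. The other 12, Ifnb1 among them, were not analysed here: no value was read for them, and whether the authors' annotation held them is not given in the sources used here.

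Macrophage markers and markers of other cell types moved in the same libraries. Among the macrophage markers, those that rose were Mrc1, the mannose receptor (log2 fold change 0.59), Fcgr1, an antibody receptor (0.52), Mertk and Msr1, receptors for dying cells and modified lipoprotein (0.48 each), Csf1r, the receptor of the macrophage growth factor (0.42), and Lyz2, lysozyme (0.33; adjusted p = 0.166 in limma on log2(FPKM + 1) without a filter). Adgre1, which encodes the surface marker F4/80, fell by 0.13 on the log2 scale, a call lost without DKO replicate 2 (edgeR adjusted p = 0.0536) or DKO replicate 3 (0.0968). Of 9 tested neutrophil markers 7 fell, with a summed level over 10 genes of 355 to 395 FPKM in DKO and 548 to 610 FPKM in LKO. Of 5 tested lymphocyte markers 4 fell (9 genes summed to 79.5 to 86.9 FPKM in DKO and 102 to 114 FPKM in LKO). Of 9 tested stromal markers 6 rose (10 genes summed to 68.4 to 92.6 FPKM in DKO and 41.4 to 47.4 FPKM in LKO). Among dendritic cell markers 6 of 10 were too low to test, including Flt3, Siglech and Clec9a, each averaging between 0.060 and 0.227 FPKM in either group. The summed dendritic cell list, 313 to 348 FPKM in DKO and 229 to 273 FPKM in LKO, was mostly Bst2, which macrophages also make in response to interferon. Of the 4 tested, Bst2 rose (log2 fold change 0.42) and Ccr7, a chemokine receptor of mature dendritic cells, fell, at 0.680 ± 0.430 FPKM in DKO and 1.66 ± 0.460 FPKM in LKO (SD, n = 3 each; log2 fold change −1.27, edgeR adjusted p = 0.0109). The Ccr7 call was lost without DKO replicate 1 (edgeR adjusted p = 0.0606), DKO replicate 3 (0.0671) or LKO replicate 3 (0.0744). None of the listed markers was at 0 in all libraries. The part of these markers in the rise of the sensor genes was not tested.

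**Figure D5:**
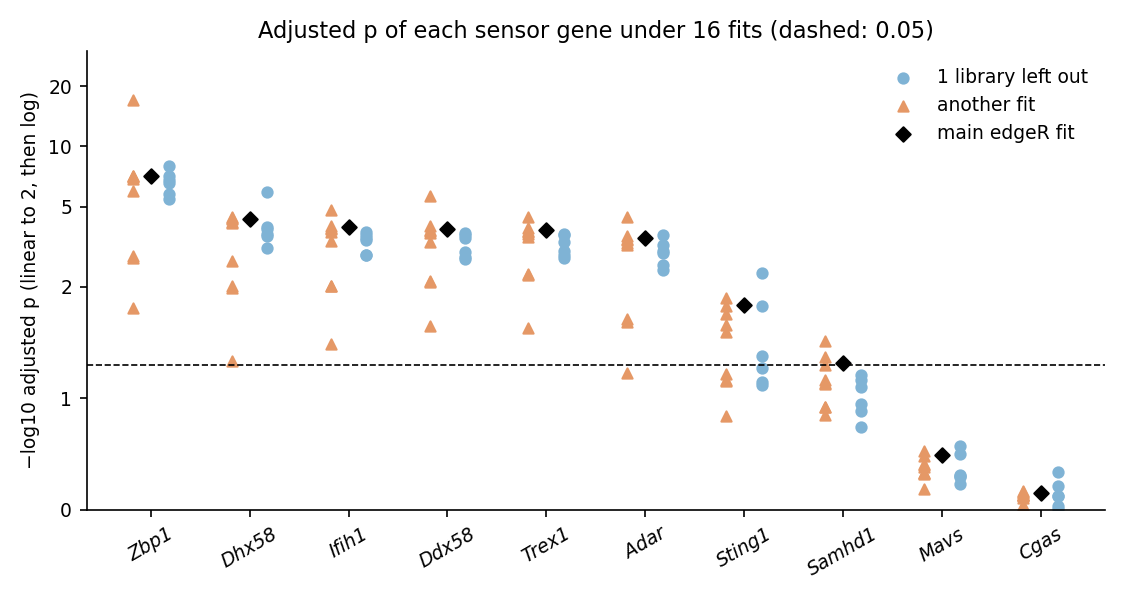
Adjusted p of each sensor gene as −log10 (vertical axis, linear up to 2 and logarithmic above) in the main edgeR fit, 9 other fits of all libraries and 6 fits with 1 library left out; the dashed line is 0.05. Zbp1, Dhx58, Ifih1, Ddx58 and Trex1 stay above the line in all 16 fits, Adar falls below it in 1, and Sting1 and Samhd1 in several.

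Across the 15 alternatives, 5 of the 8 calls, those of Ddx58, Ifih1, Dhx58, Zbp1 and Trex1, held in each, as the plot of adjusted p by fit shows. Adar held in 14, Sting1 in 8 and Samhd1 in 2, and neither Mavs nor Cgas passed in any. The log2 fold change of each of the 10 members stayed positive in all of these fits, between 0.83 and 1.04 for Zbp1 and between 0.01 and 0.16 for Cgas.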

How the data were processed

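RNA of 6 macrophage libraries (3 DKO, 3 LKO) was grouped by the sample titles. The submitters' processing notes list Bowtie 0.12.2 and mm8; the sources used here do not state the counting tool or the strand setting. Expected counts in the deposited files are the authors' estimated reads per gene before any scaling, and 23.2% to 23.6% of a library's genes had a fractional value (more than 0.005 from a whole number), among them Ddx58, Cgas and Samhd1 of the members. FPKM values were deposited by the authors with the counts, per the file headers, as was a transcript length per gene. A gene with a row in some files but not in another, which lists FPKM from 0.01, was taken as 0 there. Of 16871 gene numbers, 16832 had a symbol in a RefSeq table of GRCm38, used for names only.

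Expected counts were rounded and tested in R 4.3.3 with edgeR 4.0.16 (filterByExpr, TMM, quasi-likelihood F test, no replicate term); p-values were adjusted by Benjamini-Hochberg over the 11809 genes that passed the filter and called under 0.05. A standard error is the absolute fold change divided by the root of F. The biological coefficient of variation was 0.0413. Each library counted as its own sample. Chi-square per degree of freedom between libraries was 1.68 to 3.71 within groups and 8.30 to 14.9 across groups. These values cannot show whether the libraries came from separate animals or cultures. Alternatives were DESeq2 1.42.0, other scalings and count filters, a replicate block, limma 3.58.1 on log2(FPKM + 1) or log2(FPKM + 0.1) with a minimum FPKM of 1 in 3 libraries or without one, and leaving out each library; limma folds are on that scale, which understates low genes. The edgeR and limma fits were run on simulated data with 200 changed genes and a dispersion common to all genes. With 1689 genes called here, that simulation is no measure of error in these data, and its outcome is not given. Named are the members, Aldh2 and, of each pathway list, the called genes of 4 smallest p and all in a direction with 5 or fewer; others are marked in the text, and 1 gene that the rule takes is not reported here. Of 119 listed pathway names, 106 were found in the files. The members and lists were chosen with earlier results of these data known.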

Additional observations from a re-analysis of the deposited data

How the results depend on the processing

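Limma gave fewer calls than edgeR over all genes, where edgeR called 1689 (876 higher and 813 lower in DKO): 561 genes were higher on log2(FPKM + 1), 1119 were called (557 higher) on log2(FPKM + 0.1), and 807 (425 higher, 382 lower) without a filter. DESeq2 called 539 lower in DKO. Limma without a filter, which tests more genes, called 5 of the sensor genes higher in place of 8, and 9 pathway genes higher and 3 lower in place of 15 and 8. The other alternatives gave between 6 and 8 sensor genes higher and none lower. No sensor gene had a negative fold change in edgeR, DESeq2 or limma, so none was lower at an unadjusted p of 0.05 either. Over 48 named genes and 718 pairs of gene and alternative, 640 kept their direction and side of the threshold and 77 lost a call; Irf3, which did not pass, was at −0.0061 without DKO replicate 3. The cause of these differences was not tested.

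The labels do not say that the replicate numbers pair the libraries, so the numbers were not taken as pairs. The correlation of deviations from the group mean was −0.056 to 0.018 between same-numbered libraries. Between libraries of different number it was −0.025 to 0.052. With 3 libraries a group these values cannot show whether the libraries were paired. With the replicate block 1553 genes were called (810 higher, 743 lower), with 7 sensor genes higher; Samhd1 had an adjusted p of 0.0726. Depth limits Cgas most, with between 152.03 and 172.22 counts in DKO and between 133.81 and 168.38 in LKO.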
